A study of Rattus norvegicus with 9 samples.

Results

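Interleukin and tumour necrosis factor (TNF) system genes were followed across 3 ages of cultured rat Sertoli cells, which line the seminiferous tubule and support germ cells. The members were taken by name alone: array symbols that begin with Il and a digit, Tnf, Csf and a digit, Lifr, Osm, or Socs and a digit, without Csf1r, gave 107 genes of the 35117 on the array. All but 2 of these had a usable probe, the exceptions being Il7 and Relt, whose only probes failed the quality check. A further filter on dim probes left 57 members among 22427 genes that were tested. No level chose the members. Tmed1 and Psmg2 carried such a name only in the past (Il1rl1l and Tnfsf5ip1).

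The Sertoli cells came from testes of rats aged 5, 12 and 60 days. All groups were alike in their treatment: 4 days of culture in a defined medium, then pulses of 50 ng/ml oFSH together with 1e-07 M testosterone over 11 h, so no untreated culture entered any comparison. There were 3 one-colour expression arrays per age, 9 in all, and the comparisons ask how hormone-treated Sertoli cells of different ages differ in these genes. Nothing in the labels tells whether the replicates of an age were separate animals, pools or cultures, so the p values measure only the spread between these samples. On each array 49.1% to 63.0% of all probes were well above background, no member was saturated, and the number of arrays limits the precision.

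IL1 and its relatives and the TNF ligands signal through receptors that activate NF-kB, while IL6-type cytokines, IL24 and the colony stimulating factors signal through JAK kinases and STAT factors. Much of the control lies outside the ligands, in decoy receptors, soluble antagonists and the SOCS proteins, which switch STAT signalling off. In the testis IL1, IL6 and TNF are known as local factors of Sertoli cells, germ cells and macrophages that affect the Sertoli cell junctions and the passage of germ cells.

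Promoters of 5 members are shown because they hold the short motifs through which NF-kB, AP-1, CREB (the factor downstream of FSH and cyclic AMP) and STAT factors are known to act, and because their genes cover the patterns described below. Each is the stretch of 250 bases before the gene's start in RefSeq, build GRCr8, written 5′ to 3′ along the gene, with motif matches in capitals. Socs1 lies at chr10:5389324-5389573 on the plus strand, with an NF-kB motif that begins at -66 and a STAT motif (TTCNNNGAA) at -196. The window of Socs3 is chr10:103694769-103695018, minus strand, with an NF-kB motif at -161. For Tnfrsf1b it is chr5:162387412-162387661, minus strand, with an AP-1 motif (TGANTCA) at -186. For Il24 it is chr13:44910761-44911010, minus strand, with a STAT motif at -152. For Il6 it is chr4:5894576-5894825, minus strand, with an NF-kB motif at -68 and a cyclic AMP response element (TGACGTCA) at -162.
Socs1: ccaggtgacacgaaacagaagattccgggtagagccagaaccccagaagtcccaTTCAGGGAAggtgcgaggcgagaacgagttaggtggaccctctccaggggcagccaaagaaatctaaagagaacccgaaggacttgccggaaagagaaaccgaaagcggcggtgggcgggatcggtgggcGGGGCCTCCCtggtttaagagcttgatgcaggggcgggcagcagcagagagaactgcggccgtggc
Socs3: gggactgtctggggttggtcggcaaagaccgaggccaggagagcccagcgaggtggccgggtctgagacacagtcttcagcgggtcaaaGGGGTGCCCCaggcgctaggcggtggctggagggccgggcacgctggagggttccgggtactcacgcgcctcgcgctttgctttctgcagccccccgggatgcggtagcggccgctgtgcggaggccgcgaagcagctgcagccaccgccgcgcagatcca
Tnfrsf1b: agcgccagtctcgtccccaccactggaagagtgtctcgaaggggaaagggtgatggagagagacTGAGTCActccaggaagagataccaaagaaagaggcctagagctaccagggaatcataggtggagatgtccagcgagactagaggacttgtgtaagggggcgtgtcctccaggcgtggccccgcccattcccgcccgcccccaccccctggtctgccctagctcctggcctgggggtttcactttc
Il24: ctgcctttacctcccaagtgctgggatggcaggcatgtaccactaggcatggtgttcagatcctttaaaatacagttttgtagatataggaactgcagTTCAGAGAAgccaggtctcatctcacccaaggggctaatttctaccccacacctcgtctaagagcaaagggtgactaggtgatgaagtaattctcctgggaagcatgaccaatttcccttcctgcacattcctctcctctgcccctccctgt
Il6: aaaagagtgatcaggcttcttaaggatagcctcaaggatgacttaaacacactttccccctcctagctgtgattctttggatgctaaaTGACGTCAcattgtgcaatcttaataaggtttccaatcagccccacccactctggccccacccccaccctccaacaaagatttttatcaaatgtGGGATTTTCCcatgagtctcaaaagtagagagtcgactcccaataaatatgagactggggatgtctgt
Promoters of 42 of the 57 tested members were in the RefSeq table, and both strands were searched. The NF-kB motif stood in 7 of the 42 (16.7%), against 6.41% of all 27457 promoters in equally long windows, and the AP-1 motif in 6 (14.3%), against 6.36%. The STAT motif stood in 4 (9.52%, against 7.52%) and the cyclic AMP response element in 1 (2.38%, against 1.70%). These are matches of letters and not measured sites.

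The label of the cells was checked first. All 16 Sertoli markers were tested, and their summed level, in units of the 75th percentile signal of each array, was 45.4 to 49.1 at 5 days, 210.5 to 236 at 12 days and 308 to 337 at 60 days. Markers of other cell types were also measured, at levels that differed with age. At 5, 12 and 60 days 7 Leydig markers summed to 4.25 to 4.94, 5.07 to 8.255 and 9.63 to 13.7. This sum does not stand for each marker. Of 6 tested, 1 was called higher and 2 lower from 5 to 12 days, and 1 higher and 3 lower between 5 and 60 days (median difference -1.66). The sums of 8 endothelial markers were 4.135 to 8.08, 8.67 to 15.4 and 1.05 to 2.58. Of 5 tested, 0 were called higher and 1 lower from 5 to 12 days (median difference -0.81), although the sum was larger at 12 days. Between 5 and 60 days 1 was called higher and 4 lower. Of the Leydig and endothelial markers, Lhcgr, Pecam1 and Tek were well above background on no array. Summed levels of 18 macrophage markers were 10.1 to 17.1, 3.04 to 3.65 and 3.95 to 4.94 at the 3 ages, while Cd163, Itgam and Msr1 were well above background on no array. Peritubular and fibroblast markers, 12 in number, summed to 553 to 1072, 278 to 422 and 41.8 to 231. Markers of spermatogonia and spermatocytes, 10 in number, summed to 4.00 to 6.55, 10.0 to 12.9 and 91.8 to 174, and 9 spermatid markers to 0.276 to 0.460, 0.333 to 0.436 and 8.19 to 14.9. Markers of lymphocytes and mast cells, 14 in number, summed to 3.20 to 7.20, 2.58 to 7.61 and 5.77 to 9.965. Among them Cd3e, Cd4, Cd79b, Cpa3 and Ms4a1 were well above background on no array. Others of that list were measurable: Cd3d was well above background on all 9 arrays and not called (adjusted p = 0.61 to 0.874), Lck rose by 2.15 from 12 to 60 days (adjusted p = 0.00088), and Cd8a, above background at 60 days only, was at least 38.2-fold higher there than at 5 days (adjusted p = 5.51e-07). In RNA from a whole culture, fewer cells of a type and less RNA per cell cannot be told apart. The 60-day replicate 1 stood apart in the peritubular markers (231, against 95.6 and 41.8 on the other 60-day arrays), and this is given again beside Il1rn and Tnfrsf11b.

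**Figure D1:**
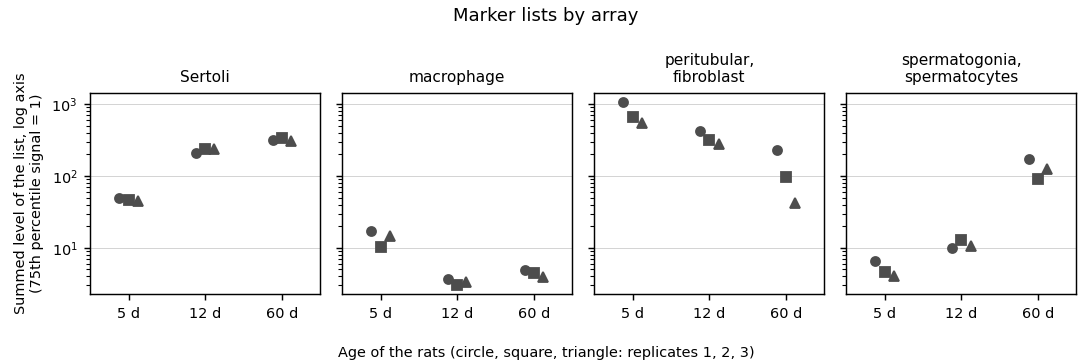
Summed level of 4 marker lists on each of the 9 arrays (log axis, 75th percentile signal of the array as 1), by age, with circles, squares and triangles for replicates 1, 2 and 3. Sertoli and germ cell markers are higher at 60 than at 5 days, macrophage markers are higher at 5 days than at either later age, and peritubular markers are lower at each later age, with 60-day replicate 1 (231) above the other 60-day arrays.

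Many classical inflammatory genes were not measurable above background in these cultures. Of the 48 members that did not pass the filter, 36 were well above background on none of the 9 arrays. Among them were Tnf itself, Osm, the colony stimulating factors Csf2 and Csf3 with the receptor genes Csf2rb and Csf3r, the osteoclast factor Tnfsf11 (RANKL), the death ligand Tnfsf10, and the T cell and macrophage cytokines Il2, Il3, Il5, Il9, Il10, Il12b, Il21 and Il23a. Il11, a cytokine of the IL6 group, was also among them. Receptors in the same state included Il2rb, Il5ra, Il7r, Il9r, Il12rb1, Il12rb2, Il18rap, Il20ra and Il21r. A further 10 were above background on 1 array each, Il17rc on 2 arrays and Tnfrsf21 on 3. The share tested was 54.3% of the members with a usable probe and 63.9% of all genes.

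Each level given below is a log2 signal from which the 75th percentile of its array was subtracted, listed for replicates 1, 2 and 3. Differences between ages are log2 values with the standard error of a limma fit to the 9 arrays, and limma also gave the adjusted p values, with Benjamini-Hochberg adjustment over all 22427 genes. A gene is said to have risen or fallen, or is called, at an adjusted p under 0.05. Where every array of the lower age was too dim for a gene to stand well above background, only a bound is given, as "at least N-fold". For each array of that age it takes the lowest signal of any probe well above background there, or the gene's own signal where higher. Some probes were not well above background at higher signals than that, so the bounds are approximate. Levels of different genes come from different probes and are not set against each other.

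From 5 to 12 days, 18 of the 57 tested members were called, 5 higher and 13 lower, where 12.5% of all genes were called (6.17% higher and 6.36% lower). From 12 to 60 days, 21 were called, 9 higher and 12 lower, against 25.4% of all genes (12.3% higher, 13.1% lower). Between 5 and 60 days, 30 were called, 9 higher and 21 lower, against 35.4% (17.3% higher, 18.0% lower). The shares of members called lower were thus above the background in all 3 comparisons, and those called higher were near it. The median difference of the members was -0.67, 0.05 and -0.28, beside 0.05, -0.16 and -0.09 for all genes. Over the 3 ages, 33 members were called by the F-test, against 36.7% of all genes. All 18, 21 and 30 calls had the same sign on each of the 3 slides, and groups overlapped only for Il22ra2 and Tnfrsf11b in the last comparison. The calls were made from these same values, so such agreement was largely fixed by the selection and is no separate support. No share over all genes is given beside it. Leaving out all arrays of some replicate number lost 13 of the 18, 12 of the 21 and 8 of the 30 calls. With normexp background correction, possible for replicates 1 and 3 only, 47 of the 69 calls were not made. Such losses are given below beside only some of the genes. The comparisons share samples and are not independent.

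**Figure D2:**
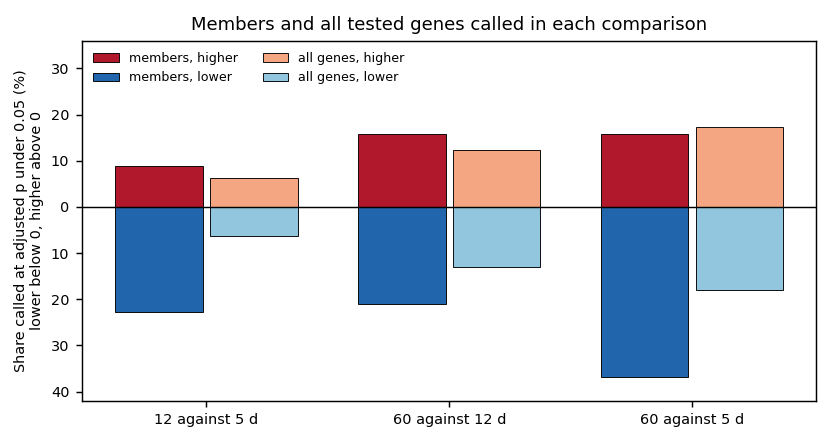
Share of the 57 tested members (dark bars) and of all 22427 tested genes (light bars) called at an adjusted p under 0.05, higher above 0 and lower below 0, in each comparison. The lower share of the members exceeds that of all genes in each comparison, with 13, 12 and 21 members.

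All directions here compare a member with the bulk of the genes on its array. When the arrays were scaled to the spike-in controls instead, the median difference of all genes moved to -1.24, 0.78 and -0.43, and the members called were 1 higher and 19 lower from 5 to 12 days, 11 higher and 1 lower from 12 to 60 days, and 4 higher and 16 lower from 5 to 60 days. In the same order, 20, 12 and 20 of the 57 members were called there, against about 10%, 13.6% and 18.5% of all genes. These shares of all genes count both directions together, so the higher and lower counts have no background of their own. Under that scale Tnfrsf17 was the only called rise from 5 to 12 days and Il1rl2 the only called fall from 12 to 60 days. Falls from 12 to 60 days that were not called there were those of Il1b, Il15, Il17b, Il17rb, Il1rl1, Csf1, Tnfsf9, Tnfsf13, Tnfrsf1b, Tnfaip8 and Socs3 (adjusted p = 0.0911 to 0.943). No call turned its direction.

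**Figure D3:**
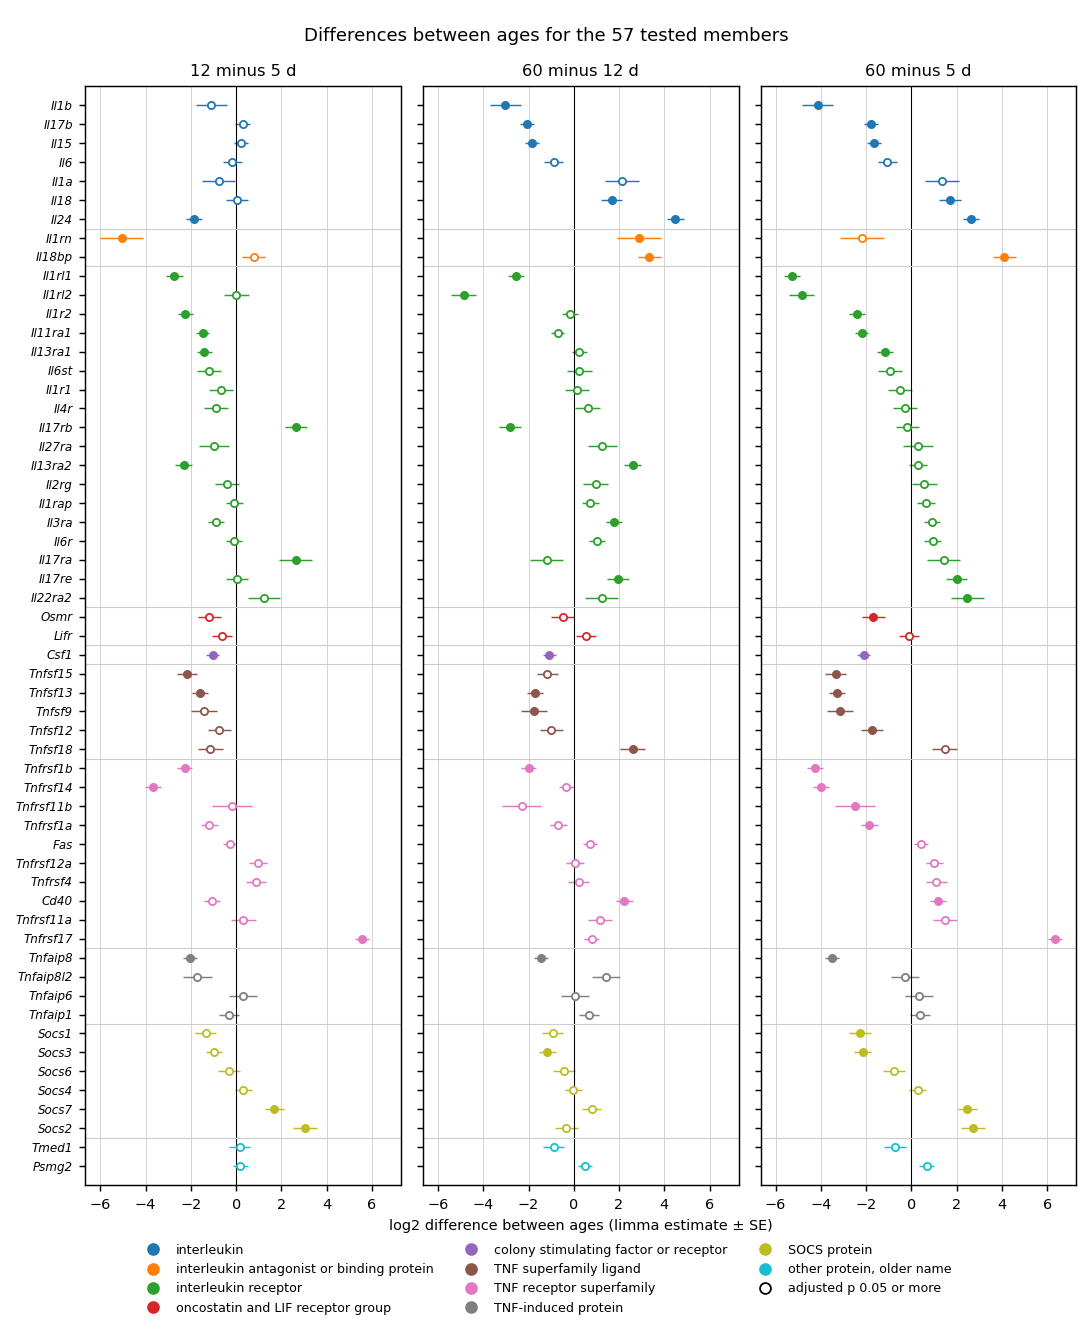
Log2 differences between ages with standard errors (limma, 3 arrays per age) for the 57 tested members, grouped by role, with filled points for adjusted p under 0.05. Il1rl1 and Tnfrsf1b lie far to the left in all panels, Tnfrsf17 far to the right in the first and last, and Il24 and Il18bp to the right in the middle panel. On the spike-in scale all points of a panel shift together, and no call turns its direction.

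Interleukins themselves were few. Of 23 on the array 7 were tested: 1 fell from 5 to 12 days, 2 rose and 3 fell from 12 to 60 days, and 2 rose and 3 fell between 5 and 60 days. Il24, a cytokine of the IL10 family that signals through STAT factors and whose promoter is shown above, had the largest rise among them. Its levels were -1.04, -1.53 and -2.13 at 5 days, -3.22, -3.39 and -3.63 at 12 days and 0.77, 1.30 and 1.18 at 60 days. The 12-day arrays were the lowest and the 60-day arrays the highest, without overlap. Il24 fell by 1.85 ± 0.36 from 5 to 12 days (adjusted p = 0.00638), then rose by 4.50 ± 0.36 (adjusted p = 1.3e-05), and stood 2.65 ± 0.36 above the 5-day level at 60 days (adjusted p = 0.000173). The early fall was not called without the arrays of replicate 2 (adjusted p = 0.116) or with normexp (0.504). The Il24 probe lies at chr13:43831514-43831573 (rn4). On the same chromosome, Il10 (chr13:43957706-43957765, rn4), the anti-inflammatory cytokine that gives the family its name, was well above background on no array.

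Il1b, the secreted form of IL1 made by activated macrophages, went the other way. Levels were -2.56, -2.58 and -1.36 at 5 days, -3.0, -1.89 and -4.92 at 12 days and -6.87, -5.90 and -6.14 at 60 days, where no array was well above background. The 12-day arrays spread widely and reached into the 5-day range, and all 60-day arrays lay below both. Il1b was at least 2.72-fold lower at 60 than at 12 days (adjusted p = 0.00741) and at least 5.83-fold lower than at 5 days (adjusted p = 0.000683), while the change from 5 to 12 days was not called (-1.1 ± 0.68, adjusted p = 0.388). The call from 12 to 60 days was lost without the arrays of replicate 1 (adjusted p = 0.118) or 2 (0.0602). It was also lost on the spike-in scale (0.0911) and with normexp (0.577). The call from 5 to 60 days was lost with normexp (0.0644). A second probe of Il1b, above background on no 60-day array, gave -0.80 from 5 to 12 days. Summed macrophage markers also differed between ages (10.1 to 17.1 at 5 days, 3.04 to 3.65 at 12 days and 3.95 to 4.94 at 60 days), and their part in the levels of Il1b was not tested.

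Il1a, the form of IL1 that Sertoli cells are known to make, was well above background on 1 array at 5 days, none at 12 days and 2 at 60 days. Its levels were -5.36, -3.92 and -3.52, then -5.66, -4.71 and -4.76, then -4.78, -2.21 and -1.75. The 60-day replicates 2 and 3 were the highest of the 9 arrays, and replicate 1 was not. At 60 days it was at least 2.32-fold higher than at 12 days, which was not called (adjusted p = 0.0606) without a replicate block and was called with one (adjusted p = 0.00305), as was the difference from 5 to 60 days (1.35 ± 0.75, adjusted p = 0.191 without and 0.0209 with the block).

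Il15, a growth factor of lymphoid cells, and Il17b, a ligand of the IL17 family, both fell late. Il15 levels were -1.31, -1.81 and -1.94, then -1.30, -1.45 and -1.71, then -3.40, -3.33 and -3.29. The first 2 ages overlapped, and the 60-day arrays lay close together below both. The difference was 0.20 ± 0.31 from 5 to 12 days (adjusted p = 0.787) and -1.85 ± 0.31 from 12 to 60 days (adjusted p = 0.00122). Il17b had levels of 0.94, 0.91 and 0.90, then 1.13, 1.05 and 1.42, then -0.37, -1.0 and -1.24. It fell by 2.07 ± 0.32 from 12 to 60 days (adjusted p = 0.000847), to a level 1.79 ± 0.32 below that at 5 days (adjusted p = 0.00132). On the spike-in scale neither fall was called (adjusted p = 0.566 for Il15 and 0.46 for Il17b from 12 to 60 days).

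Il18, an IL1 relative that promotes interferon gamma release, and Il18bp, the secreted protein that binds and neutralises it, were both higher at 60 days. Il18 levels were -1.06, -2.27 and -2.93, then -1.65, -2.43 and -2.10, then -0.07, -0.77 and -0.31, with the 60-day arrays above all others. Il18 rose by 1.68 ± 0.47 from 12 to 60 days (adjusted p = 0.0239) and by 1.71 ± 0.47 from 5 to 60 days (adjusted p = 0.016). The first call was lost without 12-day replicate 2 or 3 or 60-day replicate 1 or 3 (adjusted p = 0.062 to 0.0776), and the second without 5-day replicate 2 (0.0526) or 3 (0.0589). A second, dimmer probe of Il18 gave smaller differences of 0.47 and 0.13. Il18bp had levels of -2.64, -1.88 and -1.59, then -1.23, -1.04 and -1.51, then 1.01, 3.1 and 2.12. The 60-day arrays were the highest, with replicate 1 the lowest of them. Il18bp rose by 3.34 ± 0.51 from 12 to 60 days (adjusted p = 0.000696) and by 4.11 ± 0.51 from 5 to 60 days (adjusted p = 9.07e-05). The IL18 receptor genes Il18r1 and Il18rap were above background on 1 and no arrays.

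Il6, whose promoter above holds both an NF-kB motif and a cyclic AMP response element, was dim at every age. It was well above background on 2 arrays at 5 days and on 1 at each later age, at levels of -3.70, -3.29 and -3.98, then -4.50, -3.80 and -3.20, then -5.03, -5.04 and -4.08. The 60-day arrays lay below those of 5 days, and the 12-day arrays overlapped both. The difference between 5 and 60 days was -1.06 ± 0.43 (adjusted p = 0.078), and it was called with the replicate block (adjusted p = 0.0454).

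**Figure D4:**
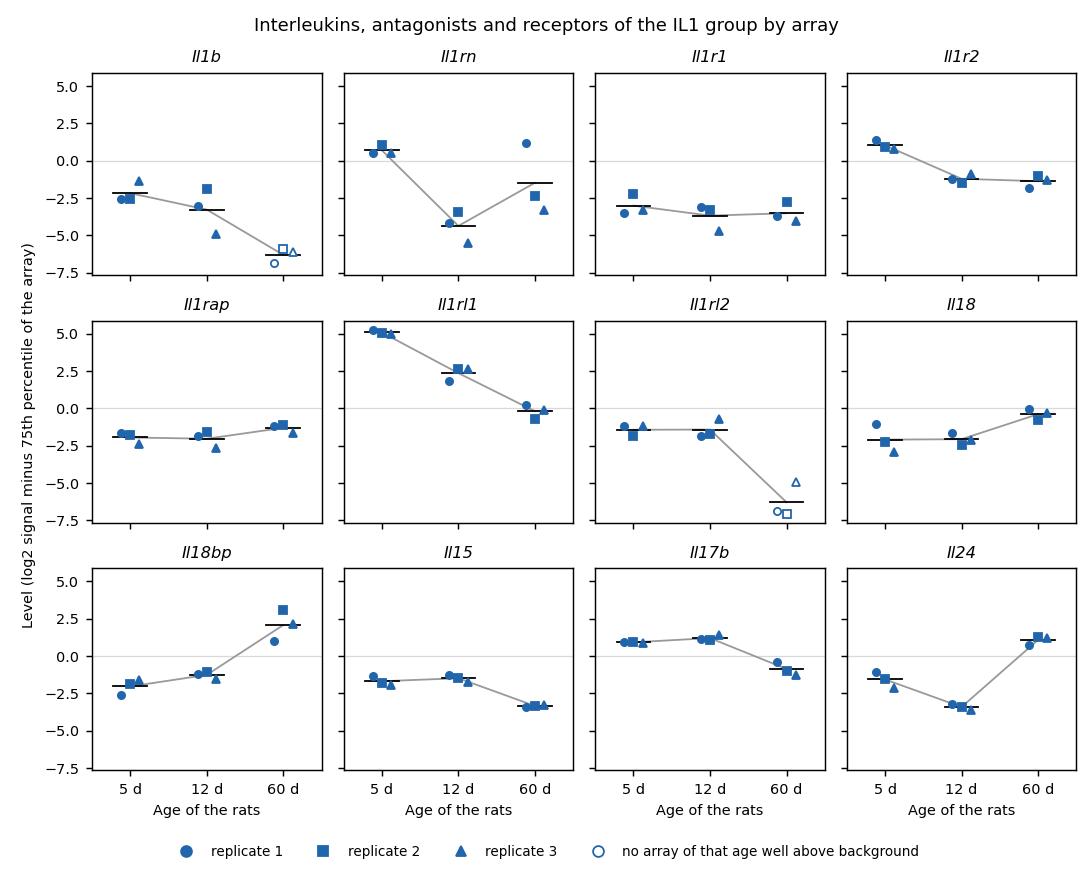
Level of 12 interleukins, antagonists and receptors on each array (log2 signal minus the array's 75th percentile) at 5, 12 and 60 days, with the mean of each age as a bar and replicates 1, 2 and 3 as circles, squares and triangles. Open symbols mark ages where no array was well above background. Il1rl1 is lower at each later age, Il24 is lowest at 12 and highest at 60 days, and the 60-day circle of Il1rn (1.19) lies far above the other 60-day arrays.

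The IL1 receptor antagonist Il1rn, which occupies the IL1 receptor without signalling, had the largest fall from 5 to 12 days among the members. Its levels were 0.54, 1.08 and 0.49 at 5 days and -4.17, -3.41 and -5.50 at 12 days. At 60 days they were 1.19, -2.33 and -3.28. The 5-day and 12-day arrays were far apart, and at 60 days replicate 1 was the highest of all 9 arrays while the others lay between the younger ages. Il1rn fell by 5.07 ± 0.96 from 5 to 12 days (adjusted p = 0.0057). From 12 to 60 days it rose by 2.89 ± 0.96 (adjusted p = 0.049). That rise was not called without 60-day replicate 1 (adjusted p = 0.0885) or replicate 2 (0.0628), without 12-day replicate 1 (0.0967) or 3 (0.162), or without any 1 of the 5-day arrays (0.0596 to 0.071). It was also not called with median scaling, quantile normalization, no filter on dim probes, a fit to the 6 arrays of these ages or normexp background correction (0.0589 to 0.358). With normexp the fall from 5 to 12 days was -1.44 and not called (adjusted p = 0.317). Without the arrays of replicate 2 that fall was not called either (0.0535). Between 5 and 60 days the difference was -2.18 ± 0.96 (adjusted p = 0.105). A second probe of Il1rn was well above background on no array, so the probes disagree. The summed peritubular markers stood apart on the same 60-day array (231, against 95.6 and 41.8), and whether these values are connected was not tested.

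Interleukin receptors made up the largest group, with 18 of 35 tested. From 5 to 12 days 2 rose and 5 fell, from 12 to 60 days 3 rose and 3 fell, and between 5 and 60 days 2 rose and 5 fell. The IL1 receptor genes lie together on chromosome 9 of rn4, and 6 of them had probes there: Il1r2 (39316654-39319494), Il1r1 (39462421-39464677), Il1rl2 (39537682-39537741), Il1rl1 (39617225-39617284), Il18r1 (39655025-39657118) and Il18rap (39677322-39677381). Of these, Il18r1 and Il18rap were not tested and Il1r1 was not called, while Il1r2, Il1rl1 and Il1rl2 fell at different steps.

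Il1rl1, also called ST2, is the receptor of IL33 and also exists as a secreted decoy. Its levels were 5.25, 5.07 and 4.96 at 5 days, 1.81, 2.63 and 2.65 at 12 days and 0.25, -0.72 and -0.09 at 60 days. Each age lay below the one before it without overlap. It fell by 2.73 ± 0.37 from 5 to 12 days (adjusted p = 0.000821) and by 2.55 ± 0.37 from 12 to 60 days (adjusted p = 0.000521), in all by 5.28 ± 0.37 (adjusted p = 2.24e-06). The fall between 5 and 60 days was the largest fitted for any member. A second probe, which the files describe as the Fit-1M (membrane) transcript, was dim: it was well above background on 2 arrays at 5 days and on none later. With the mean of both probes, or on the spike-in scale, the fall from 12 to 60 days was not called.

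Il1rl2, a subunit of the IL36 receptor, was alike at the first ages and not measurable later. Levels were -1.20, -1.88 and -1.21, then -1.82, -1.72 and -0.71, then -6.85, -7.04 and -4.96, where no 60-day array was well above background. At 60 days it was at least 9.82-fold lower than at 12 days (adjusted p = 0.000111) and at least 9.72-fold lower than at 5 days (adjusted p = 5.3e-05). The ligand genes Il36a and Il36b were above background on 0 and 1 arrays.

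Il1r2, the decoy receptor that binds IL1 without signalling, fell early. Its levels were 1.39, 0.93 and 0.79, then -1.20, -1.50 and -0.91, then -1.82, -0.99 and -1.29, so the later ages overlapped and both lay below 5 days. It fell by 2.24 ± 0.35 from 5 to 12 days (adjusted p = 0.00181) and differed by -0.16 ± 0.35 from 12 to 60 days (adjusted p = 0.785). The fall was not called without the arrays of replicate 2 (adjusted p = 0.0539). The signalling receptor Il1r1 had levels of -3.47, -2.24 and -3.29, then -3.08, -3.27 and -4.67, then -3.69, -2.79 and -4.06, and all ages overlapped. Its differences were -0.67 ± 0.53, 0.16 ± 0.53 and -0.51 ± 0.53 (adjusted p = 0.523, 0.867 and 0.494). A second probe of Il1r1 was above background on 3, 0 and 1 arrays of the 3 ages. It gave larger differences of -2.06, 0.45 and -1.61, so the probes disagree in size. The shared subunit Il1rap had levels of -1.66, -1.79 and -2.39, then -1.88, -1.56 and -2.64, then -1.17, -1.11 and -1.62, and no difference was called (adjusted p = 0.944, 0.192 and 0.216).

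Among receptors of the IL6 group, Il11ra1, the receptor of IL11, fell and its partner did not pass the test. Il11ra1 levels were 3.80, 3.77 and 3.77 at 5 days, 2.29, 2.24 and 2.37 at 12 days and 1.75, 1.55 and 1.45 at 60 days. Replicates lay close together and the ages did not overlap. It fell by 1.48 ± 0.28 from 5 to 12 days (adjusted p = 0.00568) and by 2.19 ± 0.28 over the whole span (adjusted p = 0.000119), with -0.71 ± 0.28 from 12 to 60 days (adjusted p = 0.0905). The early fall was not called without the arrays of replicate 2 (adjusted p = 0.136) or 3 (0.0626), or with normexp. Il6st, the gp130 subunit that IL6, IL11, LIF and oncostatin M share, was bright on all arrays, at 0.72, 2.38 and 1.99, then 0.67, 1.11 and -0.25, then 0.02, 1.34 and 0.92. Its ages overlapped, and the differences were -1.19 ± 0.54, 0.25 ± 0.54 and -0.94 ± 0.54 (adjusted p = 0.205, 0.786 and 0.204). Il6r, the specific IL6 receptor, had levels of -0.22, -0.43 and -0.02, then -0.60, -0.39 and 0.07, then 0.19, 0.66 and 1.30. All 60-day arrays were above the others, with differences of 1.03 ± 0.37 from 12 days (adjusted p = 0.0644, and 0.0218 with the replicate block) and 0.94 ± 0.37 from 5 days (adjusted p = 0.07, and 0.0244 with the block).

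Osmr, the oncostatin M receptor, had levels of -2.36, -1.72 and -2.55, then -4.29, -2.17 and -3.76, then -4.17, -3.66 and -3.87. The 60-day arrays lay below the 5-day arrays and the 12-day arrays spread over both. It fell by 1.69 ± 0.51 between 5 and 60 days (adjusted p = 0.0241). This call was lost without 5-day replicate 1 (adjusted p = 0.0519) or 2 (0.0873) or 60-day replicate 1 (0.0678) or 3 (0.0541). Lifr, the receptor of leukaemia inhibitory factor, had levels of -4.08, -3.41 and -3.32, then -4.78, -3.82 and -4.11, then -4.48, -3.63 and -3.0, with no difference called (adjusted p = 0.458, 0.431 and 0.886).

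The receptors of IL13 fell together from 5 to 12 days and then parted. Il13ra1, which pairs with the IL4 receptor, had levels of 3.09, 2.86 and 2.21, then 0.97, 1.59 and 1.36, then 1.60, 1.56 and 1.49. It fell by 1.41 ± 0.34 from 5 to 12 days (adjusted p = 0.0191) and fell by 1.17 ± 0.34 between 5 and 60 days (adjusted p = 0.0197). The first call was lost without 12-day replicate 1 (adjusted p = 0.0823) or 5-day replicate 1 (0.0673) or 2 (0.078). The second was lost without 5-day replicate 1 or 2 or 60-day replicate 2 or 3 (0.0559 to 0.0704). Its other 3 probes gave differences of -0.91, -0.85 and -1.92 from 5 to 12 days. The decoy Il13ra2 had levels of -3.16, -2.72 and -3.66, then -5.42, -5.42 and -5.64, then -3.51, -2.70 and -2.46. Its 12-day arrays were all below background and lay apart from both other ages, which overlapped. Il13ra2 was at least 1.93-fold lower at 12 than at 5 days (adjusted p = 0.00243) and at least 2.36-fold higher at 60 than at 12 days (adjusted p = 0.000527). Without the arrays of replicate 2 the former was not called (adjusted p = 0.0726), and with normexp neither was (0.362 and 0.0964). Il4r, the partner of Il13ra1, had levels of -1.37, -0.35 and 0.73, then -1.22, -1.70 and -0.74, then -1.35, -0.14 and -0.34, and was not called (adjusted p = 0.383, 0.463 and 0.732).

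Receptors of the IL17 family behaved differently from one another. Il17ra, the subunit common to IL17 receptors, had levels of -5.40, -4.31 and -2.91, then -1.85, -1.74 and -1.15, then -4.38, -2.16 and -1.80. It rose by 2.63 ± 0.73 from 5 to 12 days (adjusted p = 0.0389). The call was lost without any 1 of the 12-day arrays, 5-day replicate 1 or 2, or 60-day replicate 2 (adjusted p = 0.0515 to 0.146), and the difference between 5 and 60 days was called with the replicate block (adjusted p = 0.0246) and not without it (0.158). Il17rb, a receptor of IL17B and IL25, had levels of -4.92, -5.04 and -4.66, then -1.81, -1.57 and -3.33, then -5.06, -4.42 and -5.68. Its 12-day arrays stood above all others, which were mostly below background. It was at least 3.42-fold higher at 12 than at 5 days (adjusted p = 0.00531) and fell by 2.82 ± 0.49 from 12 to 60 days (adjusted p = 0.00173). The former was lost without the arrays of replicate 1 (adjusted p = 0.108) or 2 (0.0927). Neither was called on the spike-in scale (0.261 and 0.147) or with normexp (0.515 and 0.317). Il17re, the receptor of IL17C on epithelial cells, had levels of 3.86, 2.92 and 1.87, then 3.00, 3.21 and 2.56, then 5.07, 5.06 and 4.51, highest at 60 days. It rose by 1.96 ± 0.48 from 12 to 60 days (adjusted p = 0.0116) and by 2.00 ± 0.48 from 5 to 60 days (adjusted p = 0.00713). Without the arrays of replicate 2 neither rise was called (adjusted p = 0.101 and 0.085), nor with normexp. The rise from 5 to 60 days was also not called on the spike-in scale (0.202).

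A few further receptors were called higher at 60 days than at a younger age, or were not called. Il3ra, the IL3 receptor subunit, had levels of 0.02, 0.13 and 0.61, then -0.52, -1.17 and -0.21, then 1.20, 1.34 and 0.92, and rose by 1.79 ± 0.35 from 12 to 60 days (adjusted p = 0.00352). This rise was not called without the arrays of replicate 2 (adjusted p = 0.099) or with normexp. Il22ra2, a secreted binding protein of IL22, was at least 1.64-fold higher at 60 than at 5 days (adjusted p = 0.0209), with levels of -6.16, -6.21 and -4.92, then -5.59, -4.40 and -3.59, then -4.92, -2.64 and -2.33. Its 5-day and 60-day arrays met at -4.92, and the call was lost without 5-day replicate 1 or 2 or 60-day replicate 2 or 3 (adjusted p = 0.0665 to 0.0825). A second probe of Il22ra2 was above background on 1 array only. Il27ra was not called in any comparison (adjusted p = 0.19 to 0.773). Il2rg, represented by a transcript that the files describe under another name, was above background on 1, 0 and 3 arrays of the 3 ages and was not called (adjusted p = 0.232 to 0.755).

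Of the colony stimulating factors only Csf1, the growth factor on which testicular macrophages depend, was bright enough to test. Its levels were 3.64, 3.21 and 3.32 at 5 days, 2.47, 2.23 and 2.37 at 12 days and 1.41, 1.27 and 1.15 at 60 days. Each age lay below the one before without overlap. Csf1 fell by 1.03 ± 0.29 from 5 to 12 days (adjusted p = 0.0428), by 1.08 ± 0.29 from 12 to 60 days (adjusted p = 0.0199) and by 2.11 ± 0.29 in all (adjusted p = 0.000212), and a second probe gave -1.19, -1.24 and -2.43. The first step was not called without any 1 of 8 arrays, all but 60-day replicate 1 (adjusted p = 0.0667 to 0.116). The second was not called without 12-day replicate 1 (0.0631) or 60-day replicate 2 (0.0615) or 3 (0.0711). Neither step was called with the mean of the probes (0.101 and 0.0532) or on the spike-in scale (0.0622 and 0.943). Macrophage markers were called lower in 10 of 14 genes from 5 to 12 days and higher in 5 of 14, with none lower, from 12 to 60 days, and their connection with Csf1 was not tested.

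The tested TNF superfamily ligands were lower at later ages, apart from 1. Of 9 on the array 5 were tested: 2 fell from 5 to 12 days, 1 rose and 2 fell from 12 to 60 days, and 4 fell between 5 and 60 days. Tnfsf13, the ligand APRIL that sustains plasma cells, had levels of -1.08, -0.92 and -0.22, then -2.60, -2.51 and -1.87, then -3.94, -3.95 and -4.22, and no ages overlapped. It fell by 1.59 ± 0.35 (adjusted p = 0.0138) and then by 1.71 ± 0.35 (adjusted p = 0.00475), in all by 3.30 ± 0.35 (adjusted p = 3.47e-05). The first step was not called without 12-day replicate 1 (adjusted p = 0.0607) or 5-day replicate 3 (0.0524), and the second not on the spike-in scale (0.634), with normexp (0.492) or without the 3 arrays of replicate 2 (0.0598). Tnfsf12, the ligand TWEAK, is its neighbour on chromosome 10 of rn4 (probes at 56500182-56500241 for Tnfsf13 and 56504473-56504691 for Tnfsf12). Tnfsf12 levels were -2.26, -2.17 and -1.22, then -2.44, -3.52 and -1.95, then -3.04, -3.52 and -4.33. The 12-day arrays overlapped both other ages, and the fall of 1.74 ± 0.50 between 5 and 60 days was called (adjusted p = 0.0194), though not without 5-day replicate 3 (0.0708) or 60-day replicate 3 (0.0753).

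Tnfsf15, the ligand TL1A of endothelial cells, was well above background on 2 arrays at 5 days and on none later. It was at least 1.70-fold lower at 12 days (adjusted p = 0.00946) and at least 2.55-fold lower at 60 days (adjusted p = 0.000181) than at 5 days, from levels of -4.17, -2.31 and -3.59 to -5.28, -5.80 and -5.54 and then -6.79, -6.90 and -6.42. The 12-day call was lost without the arrays of replicate 2 (adjusted p = 0.141) or 3 (0.0732). With normexp neither call was made (0.882 and 0.686). Tnfsf9, the T cell costimulator 4-1BBL, had levels of -0.06, -0.75 and -1.34, then -2.0, -2.04 and -2.36, then -2.71, -3.69 and -5.24. The ages did not overlap, but the 60-day arrays spread widely. Tnfsf9 fell by 1.75 ± 0.58 from 12 to 60 days (adjusted p = 0.0488) and by 3.16 ± 0.58 from 5 to 60 days (adjusted p = 0.0014). The former was not called without any 1 of 8 arrays, all but 60-day replicate 1 (adjusted p = 0.0503 to 0.149), nor with median scaling, quantile normalization, no filter on dim probes, 6 arrays, normexp or the spike-in scale (0.0635 to 0.685). The fall from 5 to 12 days was called with the replicate block (adjusted p = 0.0359) and not without it (0.16). Tnfsf18, the GITR ligand, was the exception: it was at least 1.49-fold higher at 60 than at 12 days (adjusted p = 0.00574), with levels of -6.06, -4.27 and -4.75, then -6.32, -6.66 and -5.50, then -2.64, -3.82 and -4.21, all below background before 60 days. That call was lost without the arrays of replicate 2 (adjusted p = 0.0554) and with normexp (0.265).

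**Figure D5:**
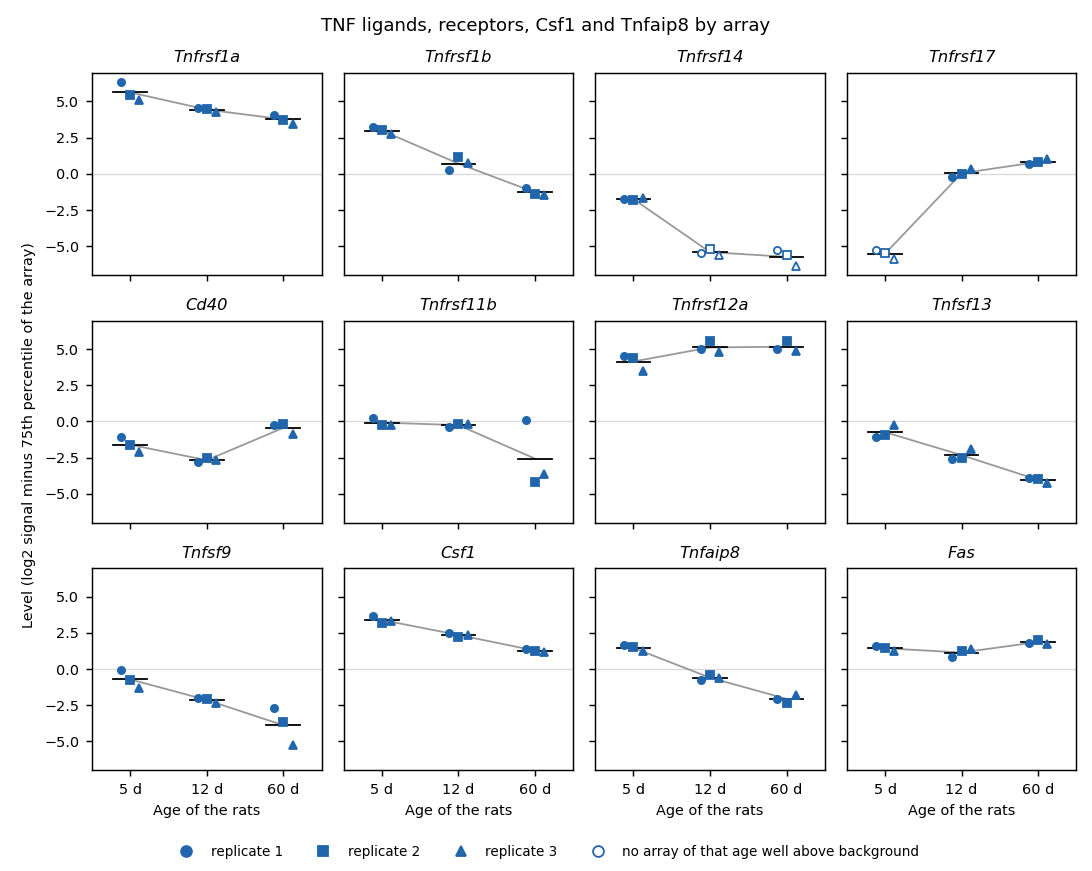
Level of 12 TNF system members on each array (log2 signal minus the array's 75th percentile) at 5, 12 and 60 days, with bars for the mean and circles, squares and triangles for replicates 1, 2 and 3. Open symbols mark ages where no array was well above background. Tnfrsf1b, Tnfsf13, Csf1 and Tnfaip8 are lower at each later age, Tnfrsf17 lies at or above -0.22 from 12 days on, and the 60-day circle of Tnfrsf11b (0.08) lies apart from the other 60-day arrays (-4.16 and -3.62).

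Receptors of the TNF superfamily included the strongest rise of all members. Of 14 on the array 10 were tested: 1 rose and 2 fell from 5 to 12 days, 1 rose and 1 fell from 12 to 60 days, and 2 rose and 4 fell between 5 and 60 days. Tnfrsf17, known as BCMA and as a receptor of BAFF and APRIL on plasma cells, had levels of -5.23, -5.44 and -5.89 at 5 days, all below background. They were -0.22, 0.02 and 0.32 at 12 days and 0.66, 0.81 and 1.00 at 60 days. Every array of the later ages was well above background, and the 60-day arrays lay above those of 12 days. Tnfrsf17 was at least 16.5-fold higher at 12 than at 5 days (adjusted p = 1.09e-05) and at least 28.5-fold higher at 60 than at 5 days (adjusted p = 5.51e-07), with 0.78 ± 0.32 from 12 to 60 days (adjusted p = 0.101). Its probe lies at chr10:4187731-4187790 (rn4). The B cell markers Cd79b and Ms4a1 were well above background on no array. Of the 6 lymphocyte and mast cell markers tested, 1 was called higher and 0 lower from 5 to 12 days. Between 5 and 60 days 2 were called higher and 0 lower. Summed markers of spermatogonia and spermatocytes went from 4.00 to 6.55 at 5 days to 10.0 to 12.9 at 12 days and 91.8 to 174 at 60 days, and Sertoli markers from 45.4 to 49.1 to 210.5 to 236 and 308 to 337. The part of any of these cell types in the rise was not tested.

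The 2 receptors of TNF itself were both bright in the young cultures. Tnfrsf1b, the inducible receptor TNFR2, had levels of 3.23, 2.99 and 2.74 at 5 days, 0.27, 1.13 and 0.72 at 12 days and -0.99, -1.39 and -1.47 at 60 days. The ages did not overlap. It fell by 2.28 ± 0.34 (adjusted p = 0.00143), then by 1.99 ± 0.34 (adjusted p = 0.00145), and by 4.27 ± 0.34 in all (adjusted p = 4.74e-06). The second step was not called on the spike-in scale (adjusted p = 0.501), with normexp (0.084) or without the 3 arrays of replicate 2 (0.0581). Its promoter, shown above, held an AP-1 motif. Tnfrsf1a, the receptor TNFR1 with a death domain, had levels of 6.31, 5.44 and 5.11, then 4.57, 4.45 and 4.28, then 4.09, 3.71 and 3.47, again without overlap. It fell by 1.87 ± 0.37 between 5 and 60 days (adjusted p = 0.00245), and the step from 5 to 12 days (-1.19 ± 0.37) had an adjusted p of 0.0644, or 0.0201 with the replicate block. The gene of their ligand, Tnf, was well above background on no array.

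Tnfrsf14, the receptor HVEM of the ligand LIGHT, was measurable at 5 days only. Levels were -1.73, -1.84 and -1.66, then -5.44, -5.19 and -5.59, then -5.25, -5.59 and -6.36. It was at least 5.21-fold lower at 12 days (adjusted p = 0.000123) and at least 7.81-fold lower at 60 days (adjusted p = 9.07e-06) than at 5 days. A second probe of Tnfrsf14, above background on 1 array at 5 days and 1 at 12 days, gave a difference of -0.28 from 5 to 12 days, so the probes disagree. Cd40, the receptor through which T cells activate other cells, had levels of -1.08, -1.62 and -2.12, then -2.83, -2.52 and -2.69, then -0.22, -0.21 and -0.90, lowest at 12 days. It rose by 2.24 ± 0.36 from 12 to 60 days (adjusted p = 0.00104) and stood 1.16 ± 0.36 above the 5-day level at 60 days (adjusted p = 0.0282). The latter was not called without 5-day replicate 2 or 3 or 60-day replicate 1 or 2 (adjusted p = 0.0747 to 0.101). The early step of -1.07 ± 0.36 was called with the replicate block (adjusted p = 0.0411) and not without it (0.086).

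Tnfrsf11b, osteoprotegerin, the soluble decoy of RANKL, had levels of 0.27, -0.24 and -0.27, then -0.40, -0.21 and -0.15, then 0.08, -4.16 and -3.62. Replicate 1 at 60 days was in the range of the younger ages and the other 60-day arrays were far below. The fall of 2.49 ± 0.87 between 5 and 60 days was called (adjusted p = 0.0464), but not without any 1 of 8 arrays, all but 60-day replicate 1 (adjusted p = 0.0571 to 0.179), nor with median scaling, quantile normalization, no filter on dim probes, 6 arrays or normexp (0.0527 to 0.463). The difference from 12 to 60 days was -2.31 ± 0.87 (adjusted p = 0.0775, and 0.0398 with the replicate block). Peritubular markers were highest on the same 60-day array (231, against 95.6 and 41.8), and their part was not tested. Tnfrsf11a, the RANK receptor, was above background on 0, 1 and 3 arrays of the 3 ages, with levels of -3.53, -3.39 and -3.41 at 60 days, and was at least 1.48-fold higher at 60 than at 5 days, which was not called (adjusted p = 0.0541, and 0.0479 with the block).

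Tnfrsf12a, the TWEAK receptor Fn14, was bright on all arrays, at 4.51, 4.41 and 3.49, then 4.98, 5.54 and 4.79, then 5.02, 5.57 and 4.88. The 5-day arrays were the lowest and the later ages overlapped. Its differences from 5 days were 0.97 ± 0.39 at 12 days (adjusted p = 0.151, and 0.0489 with the replicate block) and 1.02 ± 0.39 at 60 days (adjusted p = 0.0649, and 0.0188 with the block). Fas, the death receptor for Fas ligand, which Sertoli cells are known to make, had levels of 1.56, 1.47 and 1.27, then 0.81, 1.23 and 1.38, then 1.82, 2.03 and 1.75. The 60-day arrays were the highest, and no difference was called (adjusted p = 0.654, 0.106 and 0.299). Tnfrsf4, the T cell receptor OX40, was measurable on all arrays and not called (1.1 ± 0.46 between 5 and 60 days, adjusted p = 0.0893, and 0.0327 with the block).

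Of the TNF-induced proteins, 4 of 5 were tested and only Tnfaip8, a regulator of cell death, was called. Its levels were 1.64, 1.51 and 1.22, then -0.79, -0.39 and -0.60, then -2.04, -2.34 and -1.80, and each age lay below the one before. It fell by 2.05 ± 0.31 (adjusted p = 0.00155), then by 1.47 ± 0.31 (adjusted p = 0.00529), and by 3.52 ± 0.31 in all (adjusted p = 9.17e-06). The second step was not called on the spike-in scale (adjusted p = 0.761), with normexp (0.17) or without the 3 arrays of replicate 2 (0.137). Its relative Tnfaip8l2 was above background on 2, 0 and 1 arrays of the 3 ages and was called with the replicate block and not without it, lower from 5 to 12 days (adjusted p = 0.0305 with and 0.112 without) and higher from 12 to 60 days (0.0398 with and 0.127 without). Tnfaip6, a secreted protein that binds hyaluronan, had levels of -0.55, -0.82 and -2.54, then -0.48, -0.73 and -1.81, then -0.11, -1.04 and -1.74. Replicate 3 was the lowest of each age, and the differences of 0.29, 0.05 and 0.34 were not called. Tnfaip1 was not called either (adjusted p = 0.302 to 0.765). Tmed1, a protein of vesicle transport, and Psmg2, a chaperone of the proteasome, are members through older names only, and neither was called (adjusted p = 0.201 to 0.907 and 0.132 to 0.824).

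Of the SOCS proteins, the feedback inhibitors of JAK-STAT signalling, 6 were found by name on the array. All 6 were tested, and those called moved in opposite directions. Socs2, best known as a brake on growth hormone signalling, had levels of -6.20, -4.75 and -4.27, then -1.65, -2.22 and -2.19, then -1.64, -2.46 and -2.95, with all 5-day arrays below background. It was at least 3.98-fold higher at 12 days (adjusted p = 0.0031) and at least 3.17-fold higher at 60 days (adjusted p = 0.00183) than at 5 days. The 12-day call was lost without the arrays of replicate 2 (adjusted p = 0.05) and on the spike-in scale (0.166). With normexp neither call was made (0.205 and 0.166). Socs7 had levels of -4.71, -5.05 and -3.88, then -2.39, -3.13 and -3.09, then -1.83, -1.72 and -2.65, and rose by 1.68 ± 0.42 from 5 to 12 days (adjusted p = 0.0237) and by 2.48 ± 0.42 from 5 to 60 days (adjusted p = 0.000812). The first rise was not called without 12-day replicate 1 (adjusted p = 0.0992) or 5-day replicate 1 (0.0763) or 2 (0.102).

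Socs1 and Socs3, the members that IL6-type cytokines and interferons are known to induce and whose promoters are shown above, fell. Socs3 levels were -2.75, -2.92 and -2.40, then -3.81, -4.05 and -3.14, then -4.63, -5.33 and -4.56, where no 60-day array was well above background. The ages did not overlap. Socs3 was at least 3.92-fold lower at 60 than at 5 days (adjusted p = 0.000886) and at least 2.00-fold lower than at 12 days (adjusted p = 0.038). The latter was not called without 12-day replicate 1 or 3, 5-day replicate 2 or any 1 of the 60-day arrays (adjusted p = 0.0504 to 0.146), and the step from 5 to 12 days (-0.98 ± 0.37) was called with the replicate block (adjusted p = 0.0383) and not without it (0.126). Socs1 levels were -2.42, -1.22 and -2.47, then -3.53, -2.86 and -3.76, then -4.36, -3.63 and -4.93. On every slide the level was lower at 12 than at 5 days and lower at 60 than at 12 days. Socs1 fell by 2.27 ± 0.47 between 5 and 60 days (adjusted p = 0.00296), and the separate steps were called with the replicate block and not without it (adjusted p = 0.00908 with and 0.0955 without for the first, 0.028 and 0.18 for the second). Socs4 had levels between -2.02 and -1.01 and Socs6 between -0.74 and 1.34, and neither was called (adjusted p = 0.256 to 0.966).

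The genes that carry and answer these signals were counted from fixed lists, whatever their change. Of all genes tested, 6.17% were called higher and 6.36% lower from 5 to 12 days, 12.3% and 13.1% from 12 to 60 days, and 17.3% and 18.0% between 5 and 60 days. Of 33 tested transducers of NF-kB, TNF and IL1 signalling, 2 rose and none fell from 5 to 12 days, 3 rose and 3 fell from 12 to 60 days, and 4 rose and 6 fell between 5 and 60 days. Among these 6 is Nfkbie, whose probe carries the array symbol Slc35b2, another gene. Nfkb1, the precursor of an NF-kB subunit, fell by 1.78 ± 0.39 between 5 and 60 days (adjusted p = 0.00429). Rel, another subunit gene, rose by 2.03 ± 0.33 from 5 to 12 days (adjusted p = 0.00247) and by 1.15 ± 0.33 between 5 and 60 days (0.0194). The subunit genes Nfkb2 and Rela were not called. Tnip1, an inhibitor that binds the NF-kB regulator A20, rose by 2.99 ± 0.59 between 5 and 60 days (adjusted p = 0.00217), while Tnip2 fell by 1.35 ± 0.42 (0.0281). Cflar, the inhibitor of death receptor signalling, rose by 1.27 ± 0.34 (adjusted p = 0.0342) and then fell by 2.93 ± 0.34 (adjusted p = 0.000129). Of 25 JAK-STAT genes tested, 1 of which is the member Lifr, none rose and 1 fell, 1 rose and 2 fell, and 2 rose and 3 fell in the same comparisons. Stat5a fell at each step, by 1.41 ± 0.34 (adjusted p = 0.0182) and 1.39 ± 0.34 (adjusted p = 0.0109), and Stat4 was at least 3.64-fold higher at 60 than at 12 days (adjusted p = 0.000656).

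Of 30 tested genes known to answer to IL1, IL6 or TNF, 1 rose and 9 fell from 5 to 12 days, 9 rose and 5 fell from 12 to 60 days, and 8 rose and 13 fell between 5 and 60 days. Their median differences were -0.83, -0.06 and -0.73, beside 0.05, -0.16 and -0.09 for all genes. The chemokine genes Cxcl10 and Ccl2 fell from 5 to 12 days, by 3.56 ± 0.61 (adjusted p = 0.00327) and 3.57 ± 0.39 (adjusted p = 0.00025), and the adhesion molecule Vcam1 fell by 3.83 ± 0.66 (adjusted p = 0.00336) and then rose by 4.65 ± 0.66 (adjusted p = 0.000465). Icam1 fell by 2.72 ± 0.45 between 5 and 60 days (adjusted p = 0.000694). Ccl5 was at least 179-fold higher at 60 than at 12 days (adjusted p = 2.72e-05), and Lcn2, an iron-binding acute phase protein, rose by 3.64 ± 0.37 in that interval (adjusted p = 6.01e-05).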

How the data were processed

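Total RNA of 9 Sertoli cell samples was labelled with Cy3 from oligo-dT primed cDNA and hybridised to 4x44k rat arrays, per the labels. Agilent Feature Extraction (9.5.3.1 for replicate 1, 10.5.1.1 for replicates 2 and 3, which also used another scanner, per the file headers) gave the processed signal, an intensity that the authors deposited after background subtraction within each array. The authors' deposited table holds log2 values, equal to the log2 processed signal minus one constant close to that array's 75th percentile, within 0.01 for 99.8% of probes.

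Control spots of the scans were dropped, 254 of 41012 probes failed quality flags, and spots of a probe were averaged. The log2 signal minus the array's 75th percentile was used for probes that were well above background on 2 or more of the 3 arrays of any age, and the brightest probe stood for each gene. Names were updated through RefSeq (GRCr8), and 13 usable members carry another symbol in the files. Positions are rn4 probe positions from the files, without exon annotation.

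One model with a mean for each age was fitted with limma 3.58.1 (R 4.3.3), with 2-sided moderated tests, Benjamini-Hochberg adjustment over all genes and calls at 0.05. The script was tested on simulated data. The members, lists and tests were chosen with earlier results of these data known. Named are all called members and a list of others whatever their change, of which Il33, Tnfaip3, Csf2ra and Socs5 were not found by name. Single genes of the signalling lists were named after their values were seen. Replicate numbers coincide with slides, and arrays of a number deviated together from their age means (correlation 0.181 to 0.601, against 0.0927 or less between other arrays of different ages), so the numbers pair the arrays, and a fit with the number as a block was an alternative. Each age always took the same place on the slide, so the effects of place and age cannot be told apart. Other alternatives were the scaling, the background correction, the filter, the probe rule, the deposited table and leaving out arrays.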

Additional observations from a re-analysis of the deposited data

How the results depend on the processing

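The counts of members called (18, 21, 30 and, by the F-test, 33) stayed within 1.5 times under the deposited table, median or quantile scaling, the mean of the probes, no filter on dim probes and fits on 6 arrays, where no F-test was run. With the replicate block they were 25, 27, 37 and 40, against 17.8%, 34.3%, 44.4% and 47.3% of all genes, and no called member was lost. With normexp background correction, possible for replicates 1 and 3 only, they were 5, 4, 14 and 12, against 1.82%, 6.86%, 14% and 11.4% of all genes. From 12 to 60 days the members were thus called about as often there as all genes. On the spike-in scale 12 members were called from 12 to 60 days, against 13.6% of all genes. With probes well above background on all 9 arrays, which left 29 members, the counts were 7, 11, 15 and 15. The shares of all genes called were then 10.6%, 22.2%, 30.7% and 32.1%. Leaving out arrays or slides gave counts between 5 and 18 for 12 against 5 days, 9 and 22 for 60 against 12 days, 23 and 32 for 60 against 5 days, and 22 and 36 by the F-test, lowest without replicate 2. In that setting 3.8%, 12.4%, 21.9% and 20.7% of all genes were called. Of the 69 single calls none turned its direction, 16 were made under every alternative in which the gene was tested, and 33 were lost on leaving out some array or slide. Signals near background limit the dim members, whose differences against an age below background are given as bounds.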
